A study of Mus musculus with 2 samples.

Results

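This account concerns 7 mouse genes of blood vessels, measured in 2 mesoangioblast clones. They are the VEGF receptor gene Flt1, the endothelial genes Egfl7 and Grrp1, the anticoagulant gene Tfpi, the ligand genes Angpt1 and Pdgfd, and Rgs4. They were chosen by name, and every probe set annotated to one of them alone was taken, which gave 11 of the 11868 probe sets that were no controls, and 7 of 5928 named genes. The choice was made with earlier results of these data known, so a count of how many of the 7 differed carries no weight of its own.

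Mesoangioblasts are progenitor cells of the mesoderm, obtained from explants of the embryonic dorsal aorta. The clones D16 and D351 came from aortas of C57BL6 embryos at embryonic day 9.5, kept for 5 days as explants and then cloned by limiting dilution on Mitomycin C-treated primary mouse embryonic fibroblasts. Colonies were later grown on gelatin in medium with fetal calf serum. The labels name no treatment, transgene or sorting step, and each group is a single clone. Total RNA of each clone was hybridised to 1 oligonucleotide array for mouse transcripts, the C array of the Affymetrix U74 series. With 1 array per clone there was no test and no difference has a replicate check, so the small number of arrays sets the precision. In RNA of a whole culture, fewer expressing cells and less RNA per cell cannot be told apart.

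A vessel is built from an inner layer of endothelial cells and an outer layer of mural cells, the pericytes and smooth muscle cells. Endothelial cells respond to VEGF through receptor tyrosine kinases and release PDGF ligands that draw in mural cells, while mural cells release angiopoietin 1, which acts on the endothelial receptor Tie2. Flt1 encodes a VEGF receptor that binds its ligand tightly and signals weakly, and its soluble form acts as a ligand trap. Egfl7 encodes a protein secreted by endothelial cells, Tfpi the main inhibitor of coagulation started by tissue factor, and Rgs4 a protein that shortens signalling by heterotrimeric G proteins.

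Promoter sequence is shown for 3 genes that were brighter in D351 (Flt1, Tfpi and Pdgfd) and for Egfl7, which was brighter in D16. RefSeq windows of assembly GRCm38.p6, from 250 bases before to 50 bases after a transcript start, matched 6 of the 7 genes with 9 windows in all, and Angpt1 was not used. Each stretch ends before the outermost start of its gene model, or, where the window lies inside the gene model, is limited to 30 bases. Capitals mark matches, on either strand, to 3 motifs picked after the sequences had been read: GGAAGT, the core bound by ETS factors, TGACGTCA, the cyclic AMP response element, and TATAAA, the TATA box. No match overlapped a match of another motif.
Flt1, with the response element, chr5:147726064-147726093, minus strand: tTGACGTCActggaaggaggtgccggggta
Flt1, closer to the start, chr5:147726035-147726064, minus strand: aGGAAGTgggctggggaaaggtTATAAAtc
Tfpi, chr2:84476776-84477009, minus strand: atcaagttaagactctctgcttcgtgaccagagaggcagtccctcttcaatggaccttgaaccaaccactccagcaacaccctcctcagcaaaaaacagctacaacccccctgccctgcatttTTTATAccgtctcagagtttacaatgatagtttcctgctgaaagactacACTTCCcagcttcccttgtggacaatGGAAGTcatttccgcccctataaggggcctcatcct
Pdgfd, chr9:6168236-6168362, plus strand: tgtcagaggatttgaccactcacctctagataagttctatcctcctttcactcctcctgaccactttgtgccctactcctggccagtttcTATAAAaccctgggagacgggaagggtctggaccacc
Egfl7, outer start, chr2:26580833-26581082, plus strand: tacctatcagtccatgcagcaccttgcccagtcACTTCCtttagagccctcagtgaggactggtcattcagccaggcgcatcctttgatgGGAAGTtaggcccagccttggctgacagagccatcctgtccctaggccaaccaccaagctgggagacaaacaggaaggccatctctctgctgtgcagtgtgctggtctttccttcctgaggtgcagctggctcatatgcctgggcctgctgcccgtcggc
Egfl7, inner start, chr2:26583785-26583814, plus strand: aGGAAGTccggcgggaagggcccatcccag
The Flt1 window held all 3 motifs, with TGACGTCA beginning 81, GGAAGT 52 and TATAAA 31 bases before the start. In the outer Tfpi window, GGAAGT began 52 bases before the start, and its reverse complement 78 bases before. Both Egfl7 stretches carried GGAAGT as well, so this motif was present in genes that leaned to either clone. The Pdgfd stretch held TATAAA, 160 bases before the start, and no GGAAGT lay in its window. Sequence of Rgs4, of Grrp1 and of the inner Tfpi start is not printed. The Rgs4 window held TATAAA, 31 bases before the start. The inner Tfpi window held the reverse complement of GGAAGT, 93 bases before that start. Of 32851 mouse windows of this length, 23.8% held GGAAGT, 1.79% TGACGTCA and 13.6% TATAAA. A match is a description of the letters and not a binding site.

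The values are linear intensities, each summarising the probes of a probe set, and they compare the clones for a given probe set but not probe sets with each other. The median of all values on both arrays, 6.4, was taken as a floor. Values no higher than this were called dim and were set to the floor before a ratio was formed, so a ratio against a dim value is a lower bound, written "at least". A probe set above the floor in at least 1 clone was called measured, the brightest probe set stood for its gene, and a difference of 2-fold or more was called. The 19 negative controls, probe sets against bacterial and yeast RNA, had a median of 1.9 and reached 11.2, which marks the background. Log2 ratios are D351 minus D16. The 9 hybridization controls had a median log2 ratio of -0.67 (1.59-fold, the D16 side brighter), so a direction here means relative to the average probe set.

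The 7 genes split between the clones. Flt1, Tfpi, Pdgfd and Rgs4 were brighter in D351, and Egfl7, Angpt1 and Grrp1 were brighter in D16. All 7 passed 2-fold by their brightest probe set, 4 towards D351 and 3 towards D16, where 20.5% of 3934 measured genes did so (10.3% towards D351 and 10.2% towards D16). Because the genes were picked with these results known, nothing is read from that contrast. In 3 genes the D16 value was dim, in 2 the D351 value was dim, and only Rgs4 and Grrp1 were above the floor in both clones. Of the 11 probe sets, 8 were measured and 3 were dim in both clones.

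**Figure D1:**
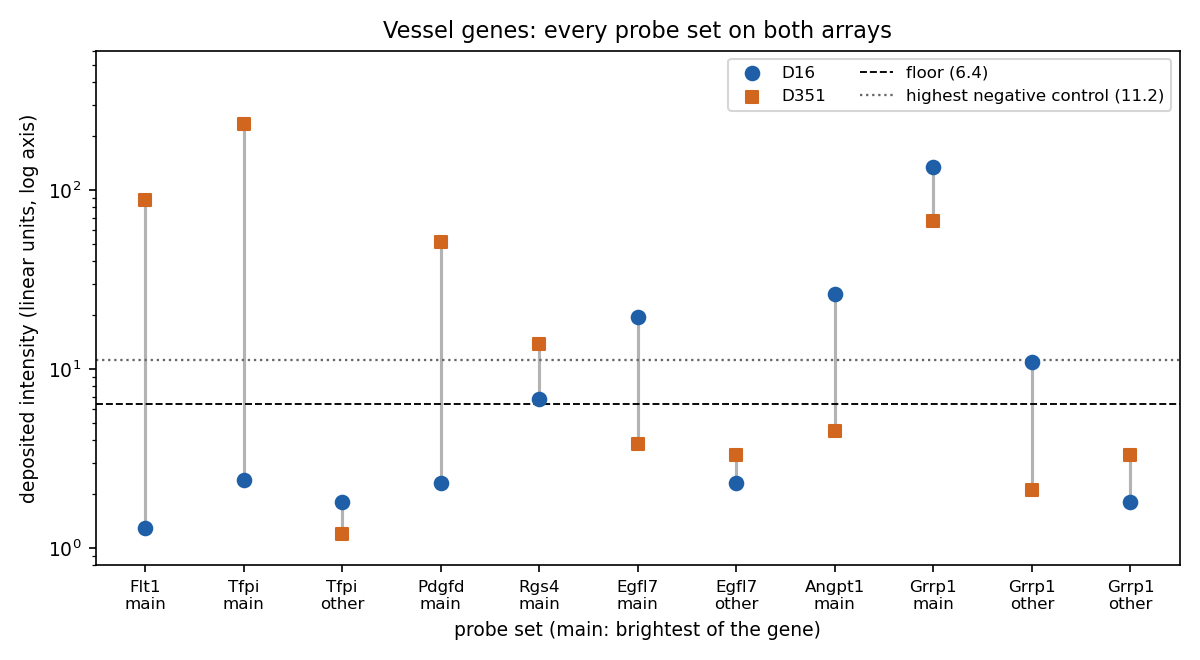
Deposited intensity (log axis) of each of the 11 probe sets in D16 (circles) and D351 (squares), with 1 array per clone and no error bars; the dashed line is the floor of 6.4 and the dotted line the highest negative control, 11.2. Flt1, Tfpi and Pdgfd lie far above both lines in D351 and below both in D16, while the other probe sets of Tfpi and Egfl7 lie below the floor in both clones.

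The VEGF receptor gene Flt1 was read by a single probe set without a mark in its identifier. It read 1.3 in D16 and 87.6 in D351. The D16 value lay below the median of the negative controls and the D351 value was 7.82 times their highest, so the transcript was detected above background in D351 alone. The ratio was at least 13.7-fold (log2 ratio 3.77).

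The other VEGF receptor on the array, Kdr, which carries most of the mitogenic VEGF signal, stood at 1.6 in D16 and 9.5 in D351. Its D351 value was below the highest negative control, and the gene did not pass 2-fold. Vegfa, the ligand of both receptors, was near background and nearly equal, at 11.1 in D16 and 10.3 in D351. Of 23 genes on the list of VEGF ligands, receptors and hypoxia input, 7 were on the array and 5 were measured. Besides Flt1, only Egln3, a prolyl hydroxylase that marks hypoxia-inducible factors for destruction and is itself induced by hypoxia, passed 2-fold. It was dim in D16 at 3.6 and reached 42.5 in D351, at least 6.64-fold higher. Hif1an, which encodes another oxygen-dependent hydroxylase acting on these factors, read 36.5 and 52.2, under 2-fold. The list had a median log2 ratio of 0.57 with Flt1 and 0.54 over the other 4 genes, against -0.022 for all measured genes. The 0.57 was the value of Kdr itself, a bound set by the floor with both readings within background. The 0.54 lay midway between Kdr and Hif1an, so nothing is read from these medians.

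Tfpi had the largest lower bound of the 7 genes. Its brightest probe set read 2.4 in D16 and 233.7 in D351, at least 36.5-fold higher in D351 (log2 ratio 5.19). The D351 signal was 20.9 times the highest negative control. A second probe set of Tfpi, marked "i" in its identifier, read 1.8 in D16 and 1.2 in D351, so it was dim in both clones and gave no reading of the difference. The large ratio therefore rests on a single probe set.

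Tfpi blocks the factor VIIa and tissue factor complex together with factor Xa. Of 41 genes of coagulation and fibrinolysis, 10 were on the array and 6 were measured. Past 2-fold were 3 towards D351, Tfpi included, and 0 towards D16, against 10.3% and 10.2% of all measured genes. With unmarked probe sets only, 1 gene was called towards D351, which was Tfpi. The count was 2 with quantile normalization, a pseudocount, the mean over measured probe sets or a 3-fold limit. Plat, the tissue plasminogen activator, was 2.05-fold higher in D351, at 84.6 against 41.2, by a single probe set marked "f". Anxa5, which binds phosphatidylserine and shields it from clotting factors, read 42.2 and 216.2 by its brightest probe set, marked "f". But another probe set, marked "r", read 24.6 and 15.8, in the opposite direction. An unmarked probe set of Anxa5 was dim in both clones, at 3.3 and 5.1. F10, the gene of factor X, lay at 21.1 in D16 and 17 in D351. The median of the list was 0.42 with Tfpi and -0.19 over the 5 other genes.

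Pdgfd encodes a PDGF ligand that is secreted inactive and, once cleaved, acts mainly on PDGF receptor beta, the receptor of mural cells. It was read by a single unmarked probe set, at 2.3 in D16 and 51.2 in D351. The gene was dim in D16 and at least 8-fold higher in D351 (log2 ratio 3.0). Its D351 value was 4.57 times the highest negative control. Pdgfc, the ligand most like it in structure, was within background in both clones, at 7.1 and 9.1. St14, the gene of matriptase, a protease able to cleave the PDGF-D precursor, leaned the other way at 39.3 in D16 and 23.2 in D351. This was under 2-fold and came from a probe set marked "r". A second probe set of St14, marked "i", was dim in both clones at 1.2 and 1.4. Plat, whose product activates PDGF-C, is given above. All 4 genes of the PDGF list on the array were measured. Of these, 2 passed 2-fold towards D351, Pdgfd included, against 10.3% of all measured genes. The median log2 ratio was 0.70 with Pdgfd and 0.36 over the other 3 genes. Plat did not pass under quantile normalization, with a pseudocount or among unmarked probe sets, which left 1 gene called.

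**Figure D2:**
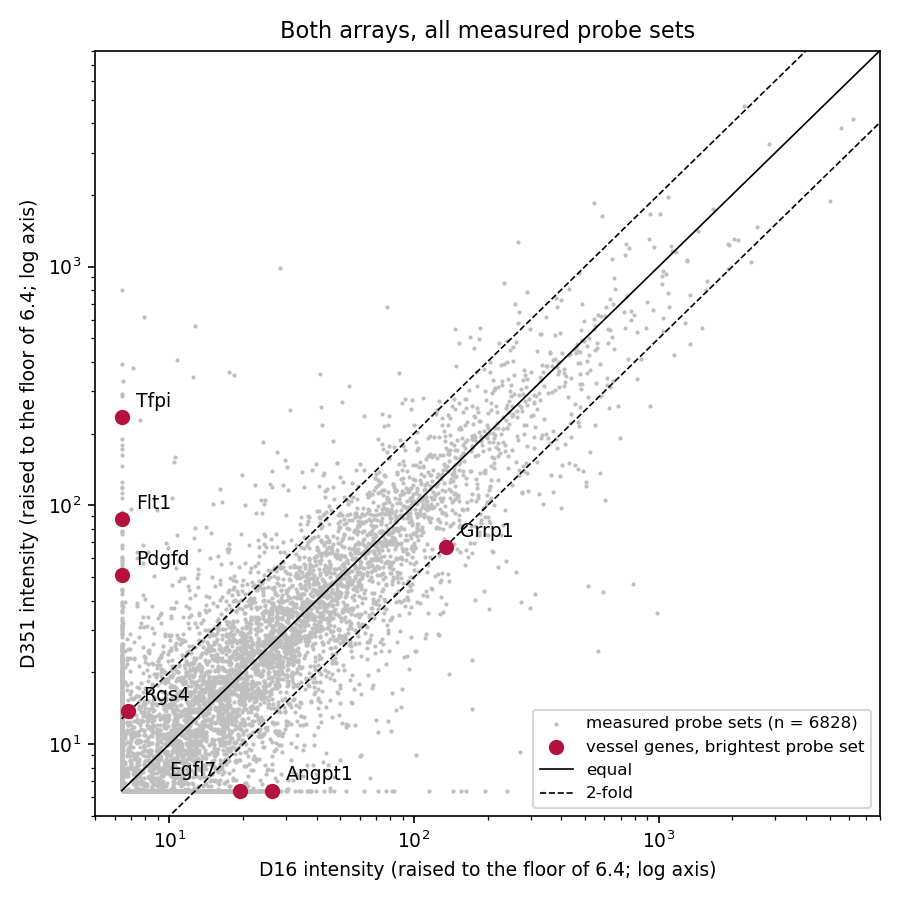
Intensity in D351 against D16 (both axes logarithmic) for the 6828 measured probe sets, with values below 6.4 raised to it; the 7 vessel genes are marked by their brightest probe set, the solid line is equality and the dashed lines 2-fold. Tfpi, Flt1 and Pdgfd sit on the left edge, dim in D16, Egfl7 and Angpt1 on the lower edge, dim in D351, and Rgs4 and Grrp1 next to the 2-fold lines.

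Angpt1, the ligand of Tie2 released by mural cells, had the opposite direction. Its single probe set, unmarked, gave 26.2 in D16 and 4.5 in D351, so the D16 signal was at least 4.09 times as high (log2 ratio -2.03). Its D16 signal was 2.34 times the highest negative control. The ligand genes Angpt1 and Pdgfd were thus each above background in a different clone. Of the angiopoietin and Tie list, 3 of 15 genes were on the array. The angiopoietin-like genes Angptl1 (2.9 and 10.2) and Angptl7 (7.2 and 2.9) stayed within the range of the negative controls.

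Rgs4 lay close to background in both clones. Its single probe set gave 6.8 for D16 and 13.8 for D351, which is 2.03-fold (log2 ratio 1.02). In D16 it was inside the range of the negative controls, in D351 it was 1.23 times their highest, and the ratio was hardly past the limit. With the highest negative control as the floor, an alternative chosen after seeing the data, the difference was at least 1.23-fold and not called. Probe sets of the same gene, over 409 genes with a pair measured in both clones, had log2 ratios that differed with an SD of 0.67 per probe set, so a log2 ratio near 1 is not far beyond that spread.

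Other genes of the RGS family were measured for 3 of the 8 on the array. Rgs17 was 2.96-fold higher in D351, at 23.4 against 7.9, with the D16 value below the highest negative control. A second probe set of Rgs17 was dim in both clones, at 2.1 and 4.6. Rgs8 did not pass 2-fold by its brightest probe set, marked "r", at 202.5 and 172.5. Another probe set of Rgs8, unmarked, went the other way at 16.1 and 40.1, 2.49-fold higher in D351. With unmarked probe sets only, the family had 3 genes called towards D351, against 2 as reported. Rgs9 was nearly equal, at 12.4 and 12.9. The family had a median of 0.54 with Rgs4 and 0.06 over the other 3 genes.

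Of the endothelial genes higher in D16, Egfl7 read 19.5 in D16 and 3.8 in D351 by an unmarked probe set. This was at least 3.05-fold higher in D16 (log2 ratio -1.61). The D16 value was 1.74 times the highest negative control, and with that control as the floor the difference was at least 1.74-fold and not called. The second probe set of Egfl7, marked "r", was dim in both clones at 2.3 and 3.3. In the RefSeq table the microRNA gene Mir126a lies inside Egfl7, and 0 probe sets of the array were annotated to it.

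Egfl7 can bind Notch receptors and dampen their signal. Of 34 genes of the Notch list, 11 were on the array and 8 were measured. Past 2-fold were 1 towards D351 and 2 towards D16, Egfl7 included, against 10.3% and 10.2% of all measured genes. Dlk1, a membrane protein akin to Notch ligands, was 2.54-fold higher in D16, at 52 against 20.5. Egfl6, which shares EGF-like repeats with Egfl7, went the other way at 8.7 and 50.5, a 5.81-fold difference. Its D16 value was below the highest negative control. Dlk1 and Egfl6 were each read by a single probe set, marked "i". With unmarked probe sets only, the list had 0 genes called towards D351 and 1 towards D16. Notch4, the receptor found mainly in endothelium, was 12.5 in D16 and 10.1 in D351, and the target gene Hey1 was 8.7 in both. Another target gene, Hes5, read 26.4 in D16 and 45 in D351 by a probe set marked "i", under 2-fold. A second probe set of Hes5, marked "r", was dim in both clones at 2.9 and 1.8. Hey1 in both clones and Notch4 in D351 lay below the highest negative control, 11.2, and Notch4 in D16 was close to it. The median of the list was 0.19 with Egfl7 and 0.38 over the other 7 genes.

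Of the 3 genes higher in D16, only Grrp1 was above background in both clones. Its 3 probe sets all carried a mark, given where probes were chosen less strictly or may match several transcripts. The brightest gave 134.9 for D16 and 66.9 for D351, which is 2.02-fold (log2 ratio -1.01). Another gave 11 and 2.1, dim in D351, in the same direction but within the range of the negative controls. The remaining one was dim in both, at 1.8 and 3.3. The difference did not reach 2-fold with the mean over its measured probe sets (1.86-fold), with lowess centring (1.99-fold), or when the arrays were scaled to the hybridization controls (1.27-fold).

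**Figure D3:**
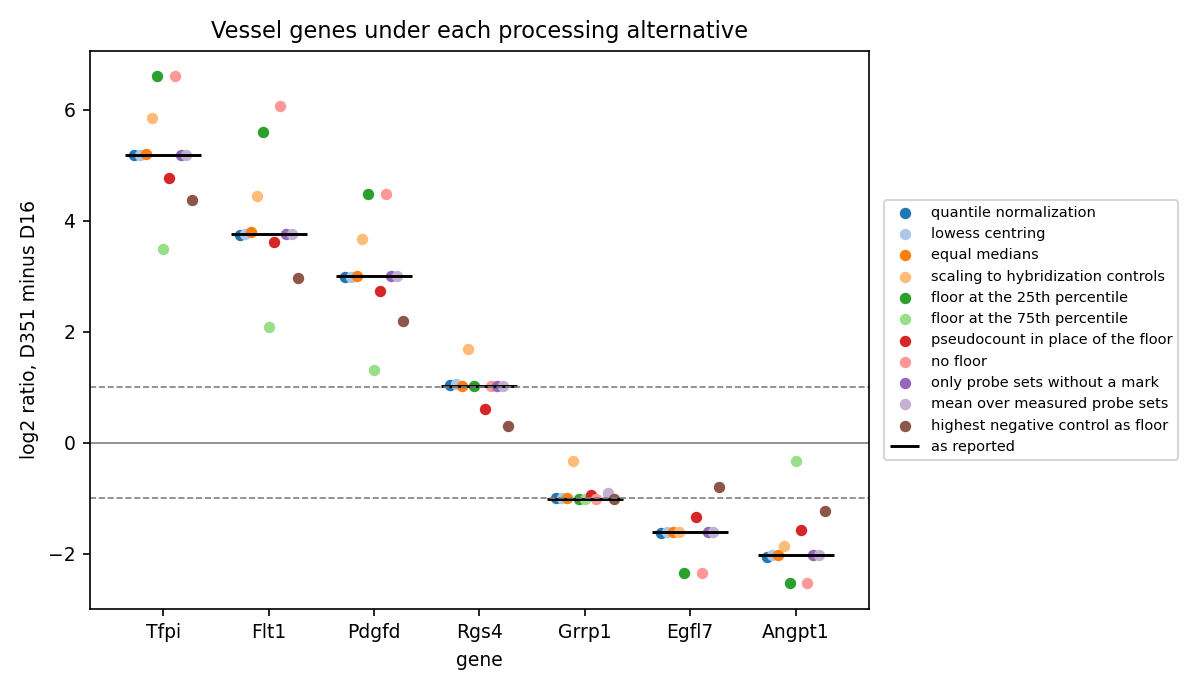
Log2 ratio (D351 minus D16) of each gene as reported (black bars) and under each of 11 processing alternatives (coloured points); dashed lines mark 2-fold, and a gene has no point where an alternative left it without a measured probe set. Tfpi, Flt1 and Pdgfd stayed beyond 2-fold throughout, from 3.50 to 6.61, 2.08 to 6.07 and 1.31 to 4.48, while Grrp1, which was reported at the limit, fell below it under 5 of 10 alternatives, and Rgs4, Egfl7 and Angpt1 under at least 1 each.

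Calls at 2-fold were made for 12.5% of 1597 measured genes whose brighter value was at most 20.7, the range of Rgs4 and Egfl7. The share was 25.2% of 1647 genes with a brighter value up to 100, the range of Flt1, Pdgfd and Angpt1, and 27.8% of 690 genes above 100, the range of Tfpi and Grrp1. With a higher floor of 20.7, the 75th percentile of all values, Tfpi was at least 11.3-fold, Flt1 at least 4.23-fold and Pdgfd at least 2.47-fold higher in D351. Grrp1 stayed at 2.02-fold higher in D16, Angpt1 was at 1.27-fold or more and was not called, and Rgs4 and Egfl7 were dim in both clones. At that floor 3 of the 7 were called towards D351 and 1 towards D16, and 16.2% of 2340 measured genes passed 2-fold (7.91% towards D351 and 8.33% towards D16). With the highest negative control as the floor, 3 were called towards D351 and 2 towards D16, against 18.1% of 3180 measured genes (9.09% and 8.99%). At 3-fold with the usual floor, Flt1, Tfpi, Pdgfd, Egfl7 and Angpt1 passed, as did 8.13% of all measured genes.

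Scaling both arrays to the hybridization controls moved the median log2 ratio of all measured genes from -0.022 to 0.59, and it moved the share of calls that lay towards D351 from 50.1% to 87.5%. Under that scaling Flt1 was at least 21.8-fold, Tfpi at least 58.2-fold, Pdgfd at least 12.8-fold and Rgs4 3.24-fold higher in D351. Towards D16, Grrp1 was 1.27-fold and Angpt1 3.65-fold higher. For Angpt1 this was a ratio and no longer a bound, since its scaled D351 value rose above the floor. The Egfl7 bound could not move, since its D351 value was still dim. The VEGF and Notch lists then had 4 genes each called towards D351, against 2 and 1 before. Towards D16 the Notch list had 1, against 2 before.

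Outside the 7 genes, none of the 3 measured endothelial and 2 measured mural markers on the lists was called with the arrays as deposited. With so few genes, and 20.5% of all measured genes called, nothing is read from this absence. Scaled to the hybridization controls, the endothelial markers called towards D351 went from 2 to 4, with Kdr and Apln added, and the mural markers from 1 to 2, with Ebf1 added. With no floor, 3 endothelial markers were called towards D351 and 2 mural markers towards D16. Of 64 endothelial markers, 12 were on the array and 7 were measured, with 2 past 2-fold in each direction, and those 4 were Flt1, Tfpi, Egfl7 and Grrp1. The other 3 measured markers, Kdr (dim in D16, so its ratio is only a bound), Apln (9.4 and 14.6) and Tspan18 (16.3 and 15.9), were not called. Another 5 were dim in both clones, among them the endothelial transcription factors Sox17 and Sox18, the adhesion receptor gene Adgrl4, Mmrn2 and the sphingosine 1-phosphate receptor gene S1pr1. The array held only part of the list. Of 28 mural markers, 7 were on the array and 4 were measured, and only Rgs4 and Angpt1 passed 2-fold, in opposite directions. The transcription factor genes Tbx18 (10.3 and 4.3) and Ebf1 (7.1 and 11) did not exceed the highest negative control. The list medians were 0.57 for endothelial and -0.03 for mural markers. The endothelial median was the value of Kdr itself, a bound set by the floor.

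**Figure D4:**
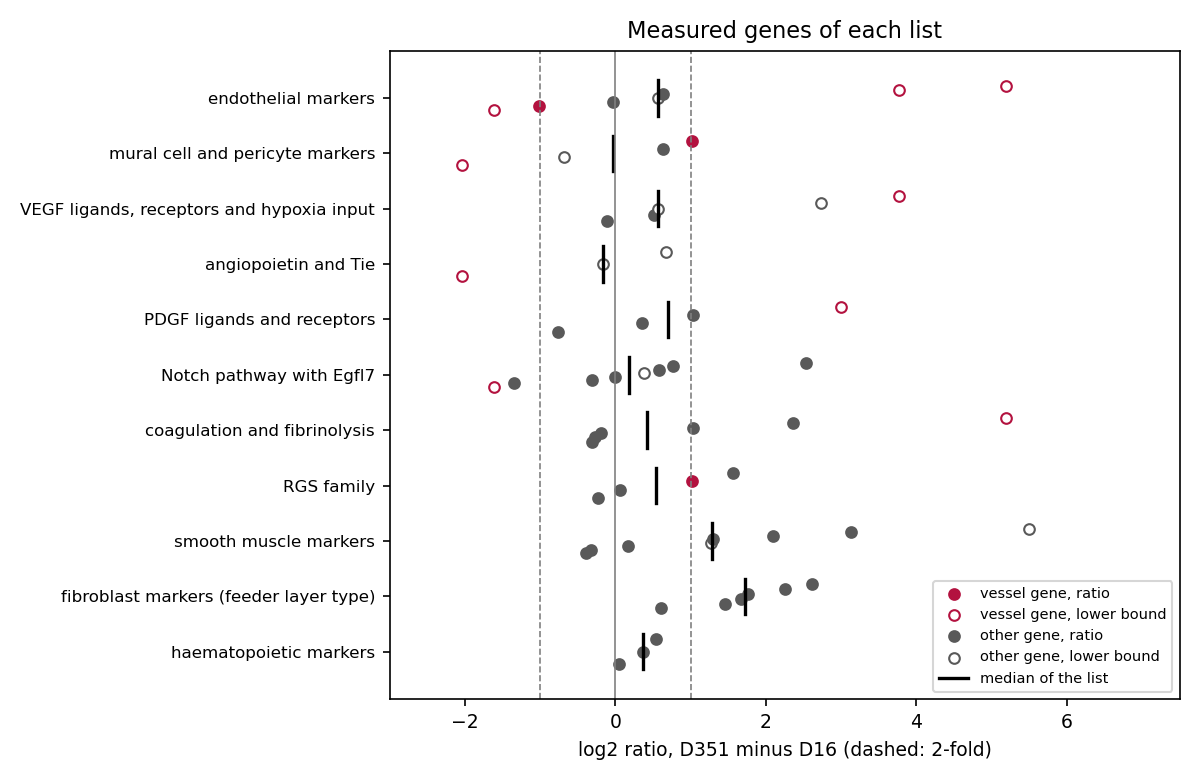
Log2 ratio (D351 minus D16) of every measured gene of each list by its brightest probe set, filled for ratios and open for lower bounds, with the 7 vessel genes in red and each list's median as a black bar. In the vessel lists most other genes lie between the dashed 2-fold lines, while 5 of 8 smooth muscle and 5 of 6 fibroblast markers lie beyond 2-fold towards D351. Over all measured genes the share towards D351 was 10.3%.

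Some markers of other cell types differed between the clones too. Over all 3934 measured genes, 10.3% passed 2-fold towards D351. The lists were chosen with earlier results of these data known, so their counts carry no weight of their own. All 6 measured fibroblast markers, the type of the feeder layer, were above 0 and 5 passed 2-fold towards D351, with a median log2 ratio of 1.72. With unmarked probe sets only, 3 passed. The 7 on the array, with Col5a2 dim in both clones, summed to 799.8 for D16 and 2599 for D351. Of this, Col5a1 alone gave 543.2 and 1838, by a probe set marked "f". An unmarked probe set of Col5a1 was dim in both clones, at 1.1 and 2.1. Of 8 measured smooth muscle markers, 5 passed 2-fold towards D351 and 2 were below 0. The 10 on the array, with Myocd and Sorbs2 dim in both, summed to 260.9 and 1323.1. Such sums give most weight to the brightest probe sets and do not stand for every gene of a list. None of the 3 measured haematopoietic markers passed 2-fold, the 5 on the array summed to 167.1 and 223.5, and Vav1 and Coro1a were dim in both. The part of these cell types in the levels of Flt1, Tfpi, Pdgfd and Rgs4 was not tested.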

How the data were processed

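The authors deposited linear intensities of 11934 probe sets on 2 arrays, 1 value a probe set on each array. How they were summarised is not given in the sources used here. Detection calls were not used. The mean without the lowest and highest 2% was 20.01 on both arrays, and the values were used as deposited. Median intensities were 6.5 in D16 and 6.2 in D351. The 66 control probe sets were set aside. Gene names came from the platform annotation, which gave 1 gene for 7717 probe sets, more than 1 for 150 and none here for 4001. The RefSeq gene table of GRCm38.p6 held 7677 of the 7717 identifiers and changed 0 symbols.

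The members and gene lists were chosen with earlier results of these data known. Text names followed a rule: every member with all its probe sets and, from each list, up to 4 genes past 2-fold either way, or else the 2 brightest. For the smooth muscle, fibroblast and haematopoietic lists, counts, sums and the genes dim in both clones are given in place of the called genes, and further genes with a known part in a member's pathway were named after their values were seen. Alternatives covered normalization, floor, pseudocount, probe set choice and a 3-fold limit. The ratio step was tested on simulated data. Scripts ran in Python 3.11.15 (pandas 2.3.3, numpy 2.4.6, matplotlib 3.10.9), with lowess (span 0.3) from statsmodels 0.14.6.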

Additional observations from a re-analysis of the deposited data

How the results depend on the processing

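No gene of the 7 changed direction under the 11 alternatives that gave a ratio, and Flt1, Tfpi and Pdgfd were past 2-fold in all of them. Grrp1 fell below 2-fold under 5 of 10 (log2 ratio -0.34 to -1.01, at the limit with equal medians), Rgs4 under 2 of 10 (0.61 with a pseudocount of the floor and 0.30 with the highest negative control as the floor), Egfl7 under 1 of 10 (-0.80, with that control) and Angpt1 under 1 of 11 (-0.34, floor at 20.7). With the floor at 20.7, Rgs4 and Egfl7 were dim in both clones and not called, and that alternative is left out of their 10. Grrp1 had no unmarked probe set, so the alternative with unmarked probe sets is left out of its 10. Genes called towards D16 among the 7 numbered 1 with the floor at 20.7. Over all measured genes, the counts towards D351 and D16 were 404 and 403 as reported, 1192 and 170 when scaled to the hybridization controls, 751 and 806 with the floor at 1.8, the 25th percentile, 185 and 195 with the floor at 20.7, 265 and 254 with unmarked probe sets only, where fewer genes were tested, and 180 and 140 at 3-fold. Of 264 counts in gene lists, 215 stayed within 1.5 times. That number includes counts that were 0 and stayed 0, for which the limit says nothing. Except where fewer genes were tested or the limit was higher, the cause was not tested. No paired analysis was possible because each clone had a single array. Signal over background limits Rgs4 and Egfl7 most, and it leaves the folds of Flt1, Tfpi and Pdgfd as lower bounds.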
